A study of Mus musculus with 8 samples.

Results

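The genes described here are the NLR sensors of inflammasomes with their adaptor, 10 genes chosen by symbol of the 29037 genes in the deposited table: Nlrp1b, Nlrp3, Nlrp6, Nlrp9b, Nlrc4, Naip1, Naip2, Naip5, Naip6 and Pycard. All 10 were in the table, and all 10 passed the filter on low values, a mean of at least 10 normalized counts over the libraries. Nlrp3 passed it only through its cKO values. RNA came from crypt cells released from the intestine of 8-week-old mice, 4 of genotype WT (Ctrl) and 4 littermates with a conditional knockout of Tdp-43 (cKO), each giving 1 library. Tdp-43, encoded by Tardbp, is a nuclear RNA-binding protein. The sources used here do not give the driver of the knockout, the deleted part, the strain or the gut segment. The comparison asked which of these genes differ in level between cKO and Ctrl crypt epithelium.

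Inflammasomes are protein platforms that assemble in the cytosol when a sensor meets a microbial product or a sign of damage. The sensor recruits caspase-1, directly or through the adaptor ASC, which Pycard encodes and which joins a pyrin domain to a CARD domain. Caspase-1 then cuts interleukin-18 and interleukin-1 beta into their active forms and opens gasdermin D, whose pores kill the cell by pyroptosis. In the mouse gut epithelium the Naip and Nlrc4 proteins are known for sensing flagellin and parts of bacterial secretion systems, and Nlrp6 and Nlrp9b for roles at the mucosal surface.

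The libraries held 21517596 to 29992110 reads on genes, and normalized counts are those reads divided by 1 factor per library. Epithelial markers were high in every library, with Epcam at 39306 to 53077 normalized counts. The colonic carbonic anhydrase Car1 stood at 19887 to 83709.7. Enterocyte markers differed widely, with at most 50.7 for the small intestinal Apoa4 and 8.01 for Fabp1, but 1693 to 7418 for Fabp2 and 3451 to 5969 for Slc5a1. These genes were not used to name the gut segment. Tardbp itself stood at 10794 to 13269 normalized counts in cKO and at 4900.2 to 6342 in Ctrl, higher in the group labelled as knockout. That value covers the whole gene and checks nothing about the deletion, so directions below are between the groups as labelled. Xist was at 32.1 normalized counts in cKO replicate 3 and at 24091 or more in each of the other libraries. So cKO replicate 3 stands apart, and values without it are given for some genes below. Nlrp1b and Naip5 kept their calls without it (limma adjusted p = 0.0365 and 0.00638). Levels are mean ± SD (n = 4 per group), and log2 fold changes are cKO over Ctrl ± SE on log2(normalized count + 1), with the adjusted p of limma over all 16536 genes tested.

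Of the 10 genes, 4 fell and 1 rose in cKO. Over all genes tested, 6.07% fell and 5.65% rose at an adjusted p under 0.05. Higher calls made up 48.2% of all calls, and 64.3% with values scaled by total reads. The genes that fell were Nlrp1b (log2 fold change -3.17 ± 0.64), Nlrp6 (-1.33 ± 0.20), Pycard (-0.78 ± 0.19) and Naip5 (-0.52 ± 0.09). The gene that rose was Nlrp3 (3.41 ± 0.90), which was scarcely detected in Ctrl. Its mean was 5.75 normalized counts in Ctrl and 52.1 in cKO, so it passed the filter only through cKO. A gene as low in both groups was not tested. The other 5, Nlrp9b, Nlrc4, Naip1, Naip2 and Naip6, had log2 fold changes between -0.22 and 0.30 and did not pass the test. The cKO values lay wholly below the Ctrl values for 3 genes and wholly above for 1, against 10.3% and 9.54% of all genes tested. The median over the 10 was -0.20, and over all genes tested -0.01. Without cKO replicate 3, the same 4 genes fell and Nlrp3 did not pass the test (adjusted p = 0.0797).

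**Figure D1:**
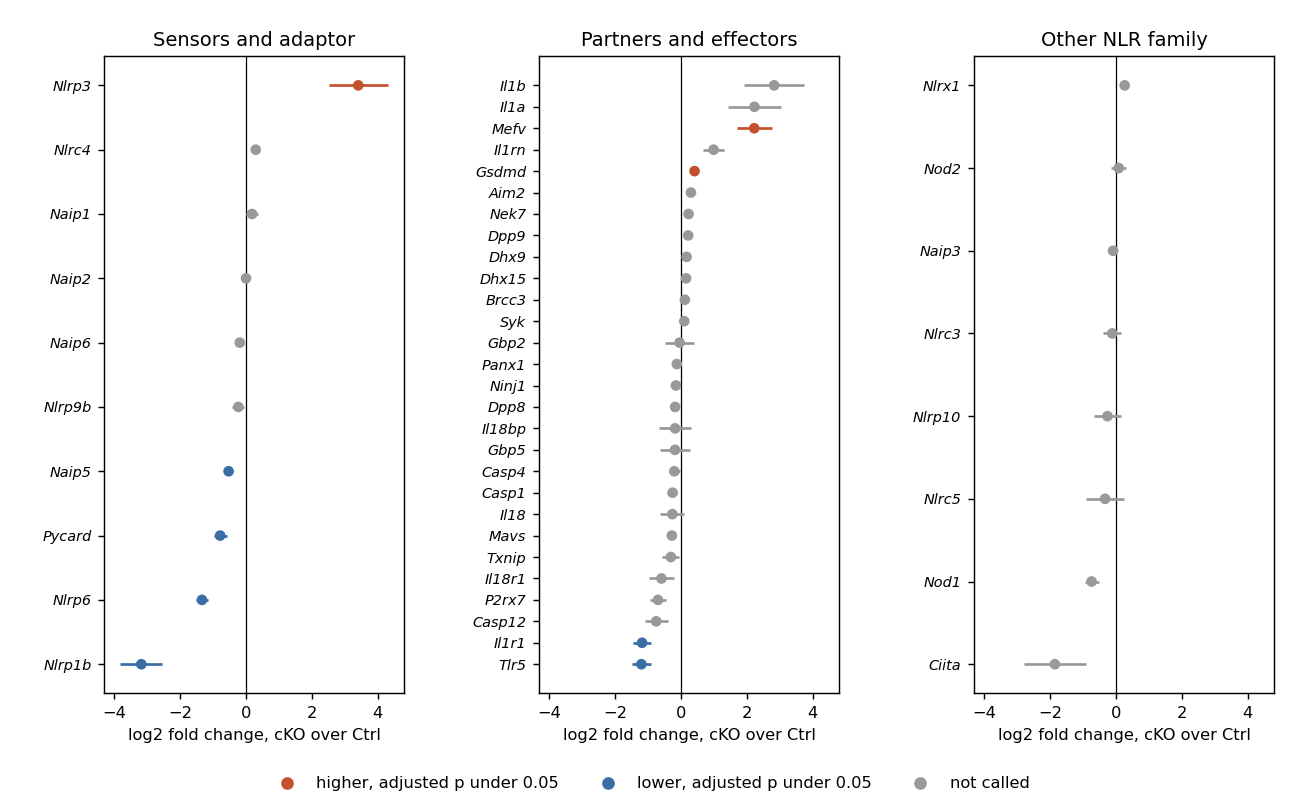
Log2 fold change of cKO over Ctrl with its SE (horizontal lines) for the 10 sensors and adaptor, the 28 tested partners and effectors and the 8 tested other NLR genes; colour marks an adjusted p under 0.05. Nlrp1b and Nlrp6 stand at -3.17 and -1.33 and Nlrp3 at 3.41, and the 8 other NLR genes hold no call.

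Levels per kilobase of gene model ranked the members over a wide range in Ctrl. Nlrp6 was first with 1894 ± 270 normalized counts per kilobase, above 95.4% of tested genes. Naip1 (977 ± 45.1), Pycard (933 ± 113), Naip6 (729.8 ± 116), Naip2 (654 ± 25.8) and Naip5 (588 ± 35.1) followed, each overlapping its neighbour in this order over the libraries. Nlrc4 (301 ± 18.0) and Nlrp9b (239.7 ± 62.4) overlapped each other and lay below Naip5. Nlrp1b (26.3 ± 5.93) and Nlrp3 (1.42 ± 1.88) were last, each separate from the gene above it. In cKO the level per kilobase was highest for Naip1 (1154 ± 373), whose libraries overlapped those of Nlrp6 (773 ± 239). Nlrp3 (12.8 ± 7.66) and Nlrp1b (4.14 ± 4.54) were still last in cKO, and their libraries overlapped.

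**Figure D2:**
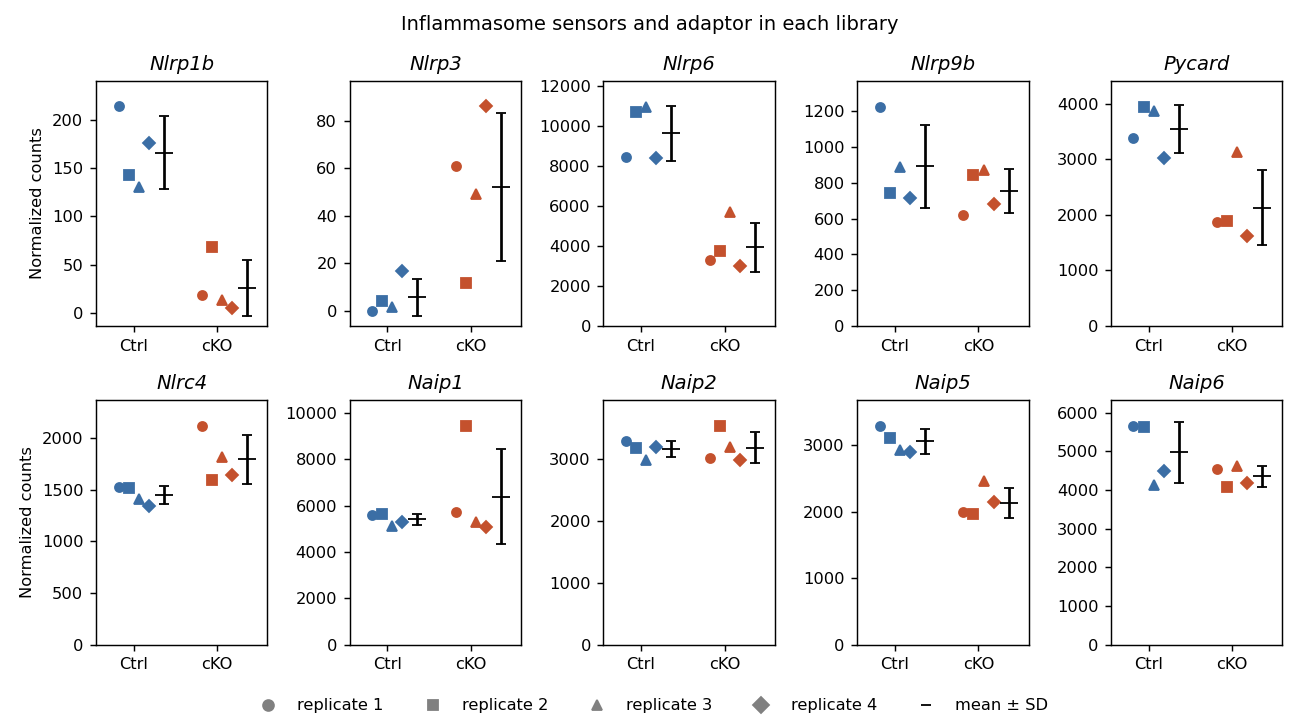
Normalized counts of each of the 10 genes in the 4 Ctrl and 4 cKO libraries (symbols mark the replicate number), with the group mean ± SD beside the points; each panel has its own axis, with 0 on it. The groups are apart for Nlrp1b, Nlrp6, Naip5 and Nlrc4, and cKO replicate 2 stands out for Naip1 at 9453.

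Nlrp6 is a sensor with a pyrin domain that is known from mouse gut for roles in mucus secretion and in the control of microbes. The Ctrl libraries, replicates 1 to 4, held 8461, 10679.8, 10933 and 8418 normalized counts of Nlrp6 (ENSMUSG00000038745, chromosome 7, 140920902 to 140929192, plus strand; GRCm38). The cKO libraries, in the same order, held 3293, 3727, 5689.6 and 2992. All 4 cKO libraries were below all 4 Ctrl libraries, and the highest of cKO was replicate 3. The mean in cKO was 40.8% of that in Ctrl (log2 fold change -1.33 ± 0.20, adjusted p = 0.00684). Without cKO replicate 3 the log2 fold change was -1.52 (adjusted p = 0.00143). The tested protein-coding genes next to it, named like all neighbours below after their values were seen, did not pass the test, with a log2 fold change of 0.26 for the proteasome subunit Psmd13 (adjusted p = 0.0553) and -0.41 for Pgghg (adjusted p = 0.0583).

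Pycard encodes ASC, the adaptor that pyrin-domain sensors such as Nlrp6 and Nlrp3 need to reach caspase-1. Normalized counts of Pycard (ENSMUSG00000030793, chromosome 7, 127989708 to 127993867, minus strand) came to 3376, 3933, 3859.6 and 3019.8 for Ctrl replicates 1 to 4. For cKO replicates 1 to 4 they came to 1870.4, 1896, 3124 and 1623. Of the cKO libraries, 3 were below every Ctrl library, and replicate 3 was above Ctrl replicate 4, so the groups overlapped. The mean in cKO was 60.0% of that in Ctrl (log2 fold change -0.78 ± 0.19, adjusted p = 0.0340). The call was kept without cKO replicate 3 (log2 fold change -0.98, adjusted p = 0.00375). It was lost without any other library, with adjusted p of 0.0711, 0.0843, 0.0944 and 0.0519 without Ctrl replicates 1 to 4, and of 0.0892, 0.0545 and 0.0832 without cKO replicates 1, 2 and 4. Its exons share 485 bases with Gm45205 on the other strand, and the sources used here do not say whether counting used strand. Gm45205 had 22.9 ± 9.14 normalized counts in Ctrl and 13.4 ± 7.16 in cKO. Trim72, which lies near Pycard, fell from 339 ± 22.3 to 190.0 ± 56.9 (log2 fold change -0.89 ± 0.23, adjusted p = 0.0380).

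The promoters of Nlrp6 and Pycard, the abundant sensor and the adaptor that fell, are shown from RefSeq on GRCm38.p6, 300 bases each read 5′ to 3′ on the gene's strand, with 250 bases before the start. Capitals mark a match on either strand to any of 5 motifs: the TATA box TATAAA, the CCAAT box, the AP-1 motif with the letters TGANTCA, the interferon response motif and the GC box with the letters GGGCGG.
Nlrp6, chr7:140920652-140920951, plus strand: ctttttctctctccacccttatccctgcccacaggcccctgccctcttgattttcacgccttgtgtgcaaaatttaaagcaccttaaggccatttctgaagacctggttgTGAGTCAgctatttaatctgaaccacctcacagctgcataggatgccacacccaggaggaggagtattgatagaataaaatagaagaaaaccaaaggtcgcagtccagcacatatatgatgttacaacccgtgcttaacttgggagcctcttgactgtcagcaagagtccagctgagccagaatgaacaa
Pycard, chr7:127993818-127994117, minus strand: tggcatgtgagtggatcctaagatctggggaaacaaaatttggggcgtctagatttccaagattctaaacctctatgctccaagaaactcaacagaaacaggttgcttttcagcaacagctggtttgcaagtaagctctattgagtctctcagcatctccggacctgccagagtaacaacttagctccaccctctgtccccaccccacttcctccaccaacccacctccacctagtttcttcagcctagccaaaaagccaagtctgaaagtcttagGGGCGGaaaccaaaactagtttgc
The Nlrp6 window held 1 match to TGANTCA, which 7.81% of 32851 promoters of this length hold. The Pycard window held 1 match to GGGCGG, just after the start, and 35.7% of promoters hold that. The TATA box, the CCAAT box and the interferon response motif, held by 13.6%, 37.4% and 3.44% of promoters, had no match in either window.

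Within each library Nlrp6 had more normalized counts than Pycard, without correction for gene length. The log2 ratio of Nlrp6 to Pycard was lower in cKO. The ratio was 1.33, 1.44, 1.502 and 1.48 in Ctrl replicates 1 to 4 and 0.82, 0.97, 0.86 and 0.88 in cKO. The groups did not overlap, and the difference of -0.55 exceeded the spread within groups (two-sided exact permutation test, p = 0.0286, the smallest that 70 splits allow, and 0.0400 adjusted over 7 ratios). Nlrp6 thus fell by more than Pycard in the same libraries. The genes most like Nlrp6 over the 8 libraries were Lrat, which esterifies retinol (Pearson r = 0.990), the Wnt cofactor Bcl9 (0.989) and the growth factor receptor Igf1r (0.988). Those most like Pycard were Aldh16a1 (0.981), Prpsap1 (0.978) and the transcription factor Irf8 (0.975). These r describe 13048 protein-coding genes over 8 points that also share the split into groups.

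Markers of mature epithelial types were mixed in direction, beside 6.07% of all genes tested that fell. Of absorptive enterocyte markers, 2 of 8 tested fell, Fabp2 and Slc5a1 (1 with edgeR), and the sum of the 12 listed was 12398 to 14229.6 normalized counts in Ctrl and 6243 to 10163 in cKO, without overlap. Without those 2 the sum of the other 10 was 1129 to 1596 in Ctrl and 959.7 to 2958 in cKO, which overlapped. Rbp2, which binds retinol in enterocytes, had a log2 fold change of 1.20 (adjusted p = 0.0648) and the peptidase Anpep 0.53 (adjusted p = 0.217). Of goblet cell markers, 1 of 9 fell, the secreted Clca1 (0 with edgeR), and the sum was 621186 to 1131550 in Ctrl and 334407 to 817131 in cKO. Without Clca1 the sum was 331092 to 557255 in Ctrl and 272133 to 535424 in cKO. Muc2, the main gel-forming mucin, had a log2 fold change of -0.12 (adjusted p = 0.716), Tff3 0.69 (adjusted p = 0.113) and Zg16 0.52 (adjusted p = 0.426). Krt20, a keratin of mature epithelial cells, rose (log2 fold change 0.60, adjusted p = 0.0322). In such bulk samples fewer cells of a type and less RNA per cell cannot be told apart, and the part of these markers in the lower Nlrp6 and Pycard was not tested.

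Nlrp1b is a sensor that proteases such as anthrax lethal factor activate and that can bind caspase-1 through its own CARD domain. The Ctrl libraries, replicates 1 to 4, held 214, 143, 131 and 176 normalized counts of Nlrp1b (ENSMUSG00000070390, chromosome 11, 71153102 to 71230733, minus strand). The cKO libraries, in the same order, held 18.3, 68.3, 13.1 and 4.91. Every cKO library was below every Ctrl library, and cKO replicate 2 was the highest of cKO. The values rest on 648 reads over Ctrl and 108 over cKO. The log2 fold change was -3.17 ± 0.64 (adjusted p = 0.0171). Without cKO replicate 2 it was -3.81 (adjusted p = 0.00311), and -2.63 without cKO replicate 4 (adjusted p = 0.0303). Those are the lowest adjusted p with 1 library left out. The highest, 0.0496 without Ctrl replicate 1, was just under the threshold.

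Of the windows of 50 bases in the longest coding transcript of Nlrp1b, 2.18% also occurred in a transcript of another gene of GENCODE M21. That gene was mainly Nlrp1a, which was absent from the genes of the deposited table. The rest of the genome was not searched, and how reads were assigned was not tested. The neighbouring pseudogene Nlrp1c-ps had at most 3.79 normalized counts in any library. The nearest tested protein-coding genes on each side had log2 fold changes of 0.16 for the centromere protein gene Mis12 (adjusted p = 0.598) and -0.32 for Pimreg (adjusted p = 0.620). The genes most like Nlrp1b over the 8 libraries were Suclg2, a subunit of a mitochondrial enzyme of the citric acid cycle (r = 0.982), the histone demethylase Kdm3b (0.978) and Gpbp1l1 (0.978). The RefSeq promoter of Nlrp1b at its deposited start held no match to the letters searched above.

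The Naip proteins bind bacterial ligands and then assemble with Nlrc4, which carries the CARD domain that recruits caspase-1. In mouse, Naip1 is known to bind the needle protein of type III secretion systems, Naip2 the inner rod protein, and Naip5 and Naip6 flagellin. Normalized counts of Nlrc4 (ENSMUSG00000039193, chromosome 17, 74425438 to 74459142, minus strand) came to 1524.5, 1514, 1407 and 1346 for Ctrl replicates 1 to 4. For cKO replicates 1 to 4 they came to 2119, 1598, 1817 and 1643, all above Ctrl. The difference did not pass the test (log2 fold change 0.30 ± 0.10, adjusted p = 0.0892). It passed without cKO replicate 2 (adjusted p = 0.0464) and with DESeq2 (adjusted p = 0.0477).

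Of the 4 Naip genes, which stand in a row on chromosome 13 on the minus strand, Naip5 alone passed the test. The Ctrl libraries, replicates 1 to 4, held 3294, 3113, 2924 and 2904 normalized counts of Naip5 (ENSMUSG00000071203, 100211739 to 100246323). The cKO libraries, in the same order, held 1993, 1962, 2456 and 2142, with no overlap between the groups. The mean in cKO was 69.9% of that in Ctrl (log2 fold change -0.52 ± 0.09, adjusted p = 0.0107). Naip6 (ENSMUSG00000078942, 100281121 to 100317674), the other flagellin receptor, held 5666, 5645, 4122 and 4496 across Ctrl, and across cKO 4542, 4072, 4625 and 4191. Its groups overlapped (log2 fold change -0.18 ± 0.12, adjusted p = 0.350).

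Naip2 (ENSMUSG00000078945, 100144063 to 100202092), which lies beside Naip5, had 3292, 3186, 2994 and 3195 normalized counts in Ctrl and 3022, 3544, 3195 and 2992 in cKO. Its log2 fold change was 0.01 ± 0.08 (adjusted p = 0.961). Naip1 (ENSMUSG00000021640, 100407764 to 100452869) had 5588, 5641, 5114 and 5289 in Ctrl and 5729.9, 9453, 5279.99 and 5082 in cKO. Its cKO replicate 2 was far above the other libraries, and the other 7 spanned a narrow range. The log2 fold change of Naip1 was 0.19 ± 0.18 (adjusted p = 0.535), and -0.01 without cKO replicate 2 (adjusted p = 0.930). Beyond the cluster, Smn1, which encodes the survival motor neuron protein and lies next to Naip2, rose from 348 to 544 (log2 fold change 0.64 ± 0.13, adjusted p = 0.0162). On the other side, next to Naip1, Gtf2h2 had a log2 fold change of 0.09 (adjusted p = 0.525).

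The Naip genes are close copies, so the split of reads between them is uncertain. Of the windows of 50 bases in their longest coding transcripts, 36.9% for Naip5, 32.5% for Naip1, 21.5% for Naip6 and 19.4% for Naip2 also occurred in another gene. Naip5 shared 22.3% of its windows with Naip6. Pseudogenes of the cluster were counted too, with 744 ± 67.7 normalized counts for Naip3 in Ctrl and 703 ± 70.3 in cKO, and 425 ± 68.1 and 327 ± 48.2 for Naip3-ps1.

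The promoters of Naip2 and Naip5 are shown because the genes are neighbours of like level in Ctrl, of which Naip5 fell and Naip2 did not pass the test. They are 300 bases each from RefSeq on GRCm38.p6, read 5′ to 3′ on the minus strand, and capitals mark runs of at least 12 bases that both share.
Naip2, chr13:100202073-100202372, minus strand: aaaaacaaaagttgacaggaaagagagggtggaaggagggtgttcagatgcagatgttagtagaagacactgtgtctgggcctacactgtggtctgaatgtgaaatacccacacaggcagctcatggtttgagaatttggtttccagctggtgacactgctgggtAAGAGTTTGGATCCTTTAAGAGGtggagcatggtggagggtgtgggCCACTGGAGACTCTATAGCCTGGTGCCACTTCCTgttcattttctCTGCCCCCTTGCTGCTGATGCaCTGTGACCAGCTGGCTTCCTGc
Naip5, chr13:100247287-100247586, minus strand: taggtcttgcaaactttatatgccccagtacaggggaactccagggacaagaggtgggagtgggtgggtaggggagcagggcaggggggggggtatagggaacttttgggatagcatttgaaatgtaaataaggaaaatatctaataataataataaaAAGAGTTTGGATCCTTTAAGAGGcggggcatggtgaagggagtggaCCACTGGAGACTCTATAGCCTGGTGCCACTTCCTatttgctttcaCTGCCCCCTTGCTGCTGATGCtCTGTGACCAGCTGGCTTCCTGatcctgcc
Both windows had 99 bases in 4 shared runs, the longest of 34 bases, in the same order. The RefSeq start of Naip5 used here lies 1013 bases upstream of the deposited gene's start.

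Set against Nlrc4 in the same library, both flagellin receptors were lower in cKO. The log2 ratio of Naip5 to Nlrc4 was 1.11, 1.04, 1.05 and 1.11 in Ctrl replicates 1 to 4 and -0.09, 0.30, 0.43 and 0.38 in cKO, a difference of -0.82. The log2 ratio of Naip6 to Nlrc4 was 1.89, 1.90, 1.55 and 1.74 in Ctrl and 1.10, 1.35, 1.35 and 1.35 in cKO, a difference of -0.48. Neither ratio overlapped between groups (two-sided exact permutation test, p = 0.0286 and 0.0400 adjusted over 7 ratios for each). The adjusted p depends on 5 of the 7 ratios standing at the smallest possible p, and the ratios share members. Taken alone, neither Naip6 (log2 fold change -0.18, limma adjusted p = 0.350) nor Nlrc4 (0.30, limma adjusted p = 0.0892) passed the test, so the lower Naip6 ratio also holds the higher Nlrc4 values. The ratio to Nlrc4 overlapped between groups for Naip2 (difference -0.29, exact permutation p = 0.114, 0.133 adjusted) and for Naip1 (difference -0.11, exact permutation p = 0.714, 0.714 adjusted). The log2 ratio of Nlrc4 to Pycard rose by 1.08, from -1.29 ± 0.15 to -0.21 ± 0.42, without overlap (exact permutation p = 0.0286, 0.0400 adjusted).

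**Figure D3:**
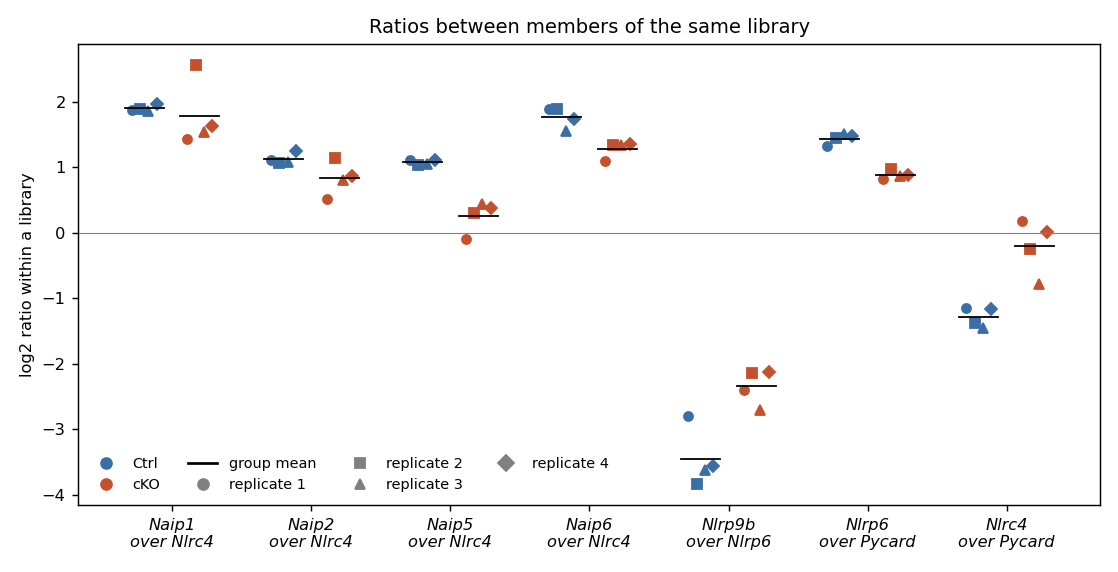
Log2 ratio of the normalized counts of 2 members in the same library, for 7 ratios, in 4 Ctrl and 4 cKO libraries (symbols mark the replicate number, black lines the group means). The ratios of Naip5 and Naip6 to Nlrc4 and of Nlrp6 to Pycard are lower in every cKO library, with differences of -0.82, -0.48 and -0.55, and those of Nlrc4 to Pycard and Nlrp9b to Nlrp6 are higher, with 1.08 and 1.10.

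As a share of the summed normalized counts of the 4 Naip genes, Naip5 was lower in each cKO library than in any Ctrl library. Naip5 made up 18.4% ± 0.66 in Ctrl and 13.5% ± 2.42 in cKO, with the lowest share, 10.3%, in cKO replicate 2. Naip1 made up 32.6% ± 1.11 in Ctrl and 39.1% ± 7.20 in cKO, where replicate 2 reached 49.7%. The genes most like Naip5 over the 8 libraries were A4gnt, a glycosyltransferase of mucins (r = 0.990), the kinase Stk38l (0.988) and the ceramide synthase Cers6 (0.987).

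Nlrp9b is known in mouse as a sensor of rotavirus RNA in intestinal epithelial cells, where it acts with the helicase Dhx9. Normalized counts of Nlrp9b (ENSMUSG00000060508, chromosome 7, 19991465 to 20073306, plus strand) came to 1222, 744, 891 and 715 for Ctrl replicates 1 to 4. For cKO replicates 1 to 4 they came to 621, 841, 870.5 and 684. The groups overlapped widely, with Ctrl replicate 1 the highest library (log2 fold change -0.22 ± 0.18, adjusted p = 0.474). Dhx9, named for that role, had a log2 fold change of 0.18 ± 0.10 (adjusted p = 0.304). The log2 ratio of Nlrp9b to Nlrp6 was -2.79, -3.84, -3.62 and -3.56 in Ctrl and -2.41, -2.15, -2.71 and -2.13 in cKO. That ratio was higher in cKO by 1.10 without overlap (exact permutation p = 0.0286, 0.0400 adjusted), so the difference between the groups was larger for Nlrp6 than for Nlrp9b.

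Nlrp3, which responds to ion loss and other signs of cell damage and is known mainly from macrophages and neutrophils, was the only member that rose. The Ctrl libraries, replicates 1 to 4, held 0, 4.20, 1.89 and 16.9 normalized counts of Nlrp3 (ENSMUSG00000032691, chromosome 11, 59541568 to 59566956, plus strand). The cKO libraries, in the same order, held 61.2, 11.7, 49.2 and 86.4. The low cKO replicate 2 was below the high Ctrl replicate 4, so the groups overlapped. The values rest on 25 reads over Ctrl and 216 over cKO. The log2 fold change was 3.41 ± 0.90 (adjusted p = 0.0417), and the ratio of the group means was 9.06. The call was lost without Ctrl replicates 1, 2 or 3 (adjusted p = 0.0832, 0.0783 and 0.107) and without cKO replicates 1, 3 or 4 (0.106, 0.0797 and 0.105). The log2 fold change was 2.74 without Ctrl replicate 1, 4.13 without Ctrl replicate 4 and 4.0 without cKO replicate 2. With edgeR on recovered reads the adjusted p was 0.0535.

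Neutrophil markers were higher in cKO as well. Of these, 6 of 8 tested rose (3 with edgeR), against 5.65% of all genes tested, with a median log2 fold change of 3.18. S100a8, S100a9, Retnlg and Il1r2, which rose, had Ctrl means under 10 and passed the filter only through cKO. So did Cxcr2 and Mmp9, which were not called. The share that rose and the median are therefore raised by the filter and cannot be weighed against all genes tested. Csf3r and Ly6g, which also rose, had Ctrl means of 12.3 and 993. The sum of the 10 listed was 654 to 1528 normalized counts in Ctrl and 5522 to 17934 in cKO. Most of it came from Ly6g, a gene of a family of similar genes. Among cKO libraries Ly6g did not follow Nlrp3. It was highest in replicate 2 (17824), where Nlrp3 was lowest, and lowest in replicate 4 (3991), where Nlrp3 was highest. Without Ly6g the sum of the other 9 was 8.52, 12.6, 19.9 and 152 in Ctrl replicates 1 to 4 and 373, 109, 319 and 1726 in cKO. Ctrl replicate 4 was the highest of Ctrl and cKO replicate 2 the lowest of cKO for this sum, as they were for Nlrp3. Of macrophage and dendritic cell markers, 1 of 12 tested rose, Mrc1, with 7 at an unadjusted p under 0.05, 5 called with DESeq2 and a median log2 fold change of 0.90. The sum of the 15 listed was 2767 to 3462 in Ctrl and 2785 to 4699 in cKO, most of it from Cd14 (log2 fold change -0.31, adjusted p = 0.409). Without Cd14 the sum of the other 14 was 494, 761, 863 and 1480 in Ctrl replicates 1 to 4 and 1471, 1536, 1776 and 1543 in cKO, with Ctrl replicate 4 just above cKO replicate 1. Of the 15, Cd163 was at 0 in 5 libraries, and the neutrophil granule gene Mpo in 6. T cell markers went the other way, with 0 of 10 tested called and a median log2 fold change of -0.47. The genes most like Nlrp3 over the 8 libraries were the complement receptor C5ar1 (r = 0.992), the itaconate-making enzyme Acod1 (0.990) and the inhibitory receptor Pilra (0.981). Each had a Ctrl mean under 10 and, like Nlrp3, passed the filter only through cKO. A high r between such genes partly follows from that and from the split into groups. The part of these other cells in the higher Nlrp3 was not tested.

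**Figure D4:**
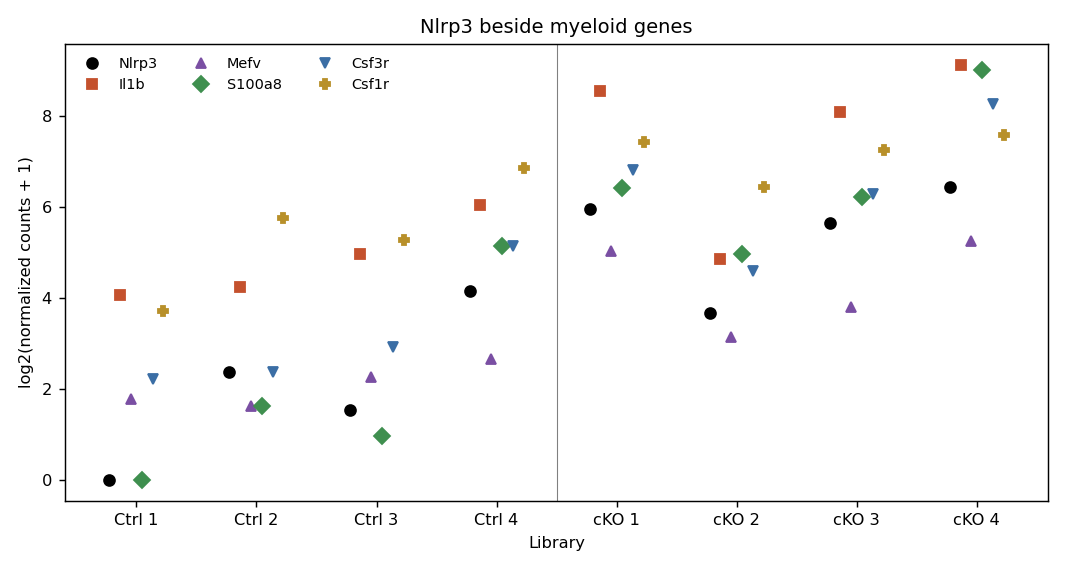
Log2(normalized counts + 1) of Nlrp3, Il1b, Mefv, the neutrophil genes S100a8 and Csf3r and the macrophage gene Csf1r in each of the 8 libraries. Nlrp3 is highest in cKO replicate 4 and at 0 in Ctrl replicate 1, and Ctrl replicate 4 lies above cKO replicate 2 for Nlrp3, Il1b, S100a8, Csf3r and Csf1r.

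Of the 28 partners and effectors of inflammasomes, all tested, 2 rose and 2 fell, with a median log2 fold change of -0.13. That is near the share over all genes tested, of which 11.7% were called in either direction. Gsdmd, which makes the pore of pyroptosis, rose from 4212 ± 170 to 5671 ± 859 normalized counts (log2 fold change 0.42 ± 0.10, adjusted p = 0.0346). Its 4 cKO libraries were all above Ctrl, with replicate 2 the highest at 6958. Mefv, which encodes the sensor pyrin, rose from 3.42 ± 1.47 to 22.5 ± 14.3 (log2 fold change 2.23 ± 0.53, adjusted p = 0.0289). Like Nlrp3, Mefv passed the filter on low values only through cKO. Tlr5, the surface receptor for flagellin, fell from 139 ± 30.1 to 62.2 ± 23.3 (log2 fold change -1.19 ± 0.29, adjusted p = 0.0300). Il1r1, the receptor of interleukin-1, fell from 547 ± 91.1 to 255 ± 109 (log2 fold change -1.17 ± 0.27, adjusted p = 0.0262). Leaving out any Ctrl library, or cKO replicate 1 or 4, ended the call of Gsdmd (highest adjusted p = 0.0924), and leaving out Ctrl replicate 1, 2 or 3 or cKO replicate 1 that of Mefv (highest 0.0834). Mefv was below the filter without cKO replicate 4. Tlr5 lost it without any library but cKO replicates 2 and 3 (up to 0.0800), and Il1r1 without any but Ctrl replicate 2 and cKO replicate 2 (up to 0.0695).

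Casp1, Casp4, Il18 and Il1b, the proteases and cytokines at the end of the pathway, did not pass the test with limma, and Il1b passed with other tools. Casp1, the protease that inflammasomes activate, averaged 4834 ± 604 normalized counts across Ctrl and 4097 ± 784 across cKO (log2 fold change -0.25 ± 0.14, adjusted p = 0.287). Casp4, known in mouse as caspase-11 and a receptor of bacterial lipopolysaccharide, had a log2 fold change of -0.19 ± 0.16 (adjusted p = 0.471). Il18, the interleukin that epithelial cells hold in store, had 1383, 1121, 1473 and 2249.5 in Ctrl replicates 1 to 4 and 633, 2201, 1247 and 1457 in cKO. Its groups overlapped (log2 fold change -0.26 ± 0.37, adjusted p = 0.699). Il1b had 15.8, 17.9, 30.3 and 65.8 in Ctrl and 376, 28.3, 274 and 562 in cKO, with cKO replicate 2 again among the Ctrl libraries. The log2 fold change of Il1b was 2.83 ± 0.90 (adjusted p = 0.0803), and 3.77 without cKO replicate 2 (adjusted p = 0.00530). It passed with edgeR (adjusted p = 0.0432) and DESeq2 (adjusted p = 0.00209), and the authors' deposited table gives 0.00253. Of genes chosen after their values were seen, Aim2, a sensor of cytosolic DNA, had a log2 fold change of 0.31 ± 0.12 (adjusted p = 0.117), and Nek7, a kinase that Nlrp3 needs, 0.24 ± 0.09 (adjusted p = 0.127).

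Of 22 other NLR genes listed, 9 were among the genes analysed here and 8 were tested. Of these 8, 0 passed the test by limma, against 11.7% of all genes tested, with 2 at an unadjusted p under 0.05. With edgeR 0 passed and 2 had an unadjusted p under 0.05, and with DESeq2 1 passed. The lowest adjusted p was that of Nod1, a sensor of bacterial peptidoglycan, at 803 ± 168 normalized counts across Ctrl and 491 ± 154 across cKO (log2 fold change -0.73 ± 0.21, adjusted p = 0.0559). Nod2, a related sensor, had a log2 fold change of 0.09 ± 0.23 (adjusted p = 0.836).

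The authors' deposited table gave the same direction for each of the 10 members. In the authors' deposited table the log2 fold changes were -2.67 for Nlrp1b, -1.29 for Nlrp6, -0.74 for Pycard, -0.52 for Naip5 and 3.15 for Nlrp3, with adjusted p of 0.000116, 2.12e-07, 0.00727, 8.82e-05 and 0.00237. The authors' deposited table had Nlrc4 at 0.31 with an adjusted p of 0.0728. A UG repeat of 12 bases, the kind of RNA stretch that Tdp-43 is known to bind, was in the longest coding transcript of 0 of the 10 members and of 7.17% of 13394 tested protein-coding genes. Introns were not searched.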

How the data were processed

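RNA-seq libraries of crypt cells from 4 Ctrl and 4 cKO mice were analysed, grouped by their titles. Per the submitters' processing notes the tools were CASAVA, HISAT2 2.0.5 and featureCounts 1.5.0-p3. The deposited signal values are gene counts that the authors divided by 1 factor per library, called normalized counts here. Whole reads were recovered from them for 100% of values within 0.0001 reads, 21517596 to 29992110 per library, and served the count tests tried as alternatives. The authors' deposited table also holds log2 fold changes and p-values, which were used only where they are named. The sources used here do not name the genome build. The coordinates of all 10 genes equal those of GENCODE M21 on GRCm38.

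Genes with a mean of at least 10 were tested on log2(value + 1) with limma 3.58.1 (R 4.3.3; two-sided, trended and robust, Benjamini-Hochberg adjusted over 16536 genes, threshold 0.05). A larger pseudocount gave smaller changes for genes with low values, with log2 fold changes of 3.75 at 0.5 and 2.41 at 5 for Nlrp3. The values with 1 are not a lower bound. Against them, edgeR gave smaller changes for Nlrp1b (-2.65) and Nlrp3 (3.09) and larger ones for Mefv (2.66) and Il1b (3.24). Within-library ratios were compared by exact two-sided permutation tests over the 8 libraries, adjusted over 7 ratios. The alternatives were 21 settings, among them edgeR 4.0.16 and DESeq2 1.42.0. The named genes were the 10 members, the called genes of the partner and other NLR lists, Casp1, Casp4, Gsdmd, Il18 and Il1b, and the 3 protein-coding genes most correlated with each called member. Others were named after their values were seen. The members and lists were chosen with earlier results of these data known.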

Additional observations from a re-analysis of the deposited data

Results flagged for a closer look

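In 3 of 50 groups of 4 libraries examined, 1 library lay far from the other 3 by Dixon's criterion, and chance gives about 1 in 20. Naip1 was at 9453 normalized counts in cKO replicate 2, with the other cKO libraries at 5082 to 5729.9. Gsdmd was at 6958 normalized counts in cKO replicate 2, with the others at 5197 to 5279. The log2 ratio of Naip6 to Nlrc4 was 1.10 in cKO replicate 1, with the others at 1.35.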

How the results depend on the processing

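Nlrp6, Naip5 and Nlrp1b passed the test in the same direction in all 21 alternatives, with log2 fold changes of -1.52 to -1.21, -0.59 to -0.44 and -3.81 to -2.63. Pycard passed in all 13 that left out no library. The count of members that rose went from 1 to 0 with a mean of at least 1, no filter, a mean of at least 50, edgeR and limma-voom, and to 2 with DESeq2, which called 1509 genes higher against 935. Leaving out 1 library at a time gave 379 to 1347 genes higher, 390 to 1385 lower, 0 to 2 members higher and 3 to 4 lower. It left 0 of the 5 ratios past the threshold, since 3 libraries against 4 cannot give a p under 0.0571. Leaving out 1 library turned the sign of 4 values that had not passed the test: the log2 fold changes of Naip1 (-0.012 without cKO replicate 2, to 0.286), Naip2 (-0.045 without cKO replicate 2 and -0.019 without Ctrl replicate 3, to 0.037) and Il18 (-0.523 to 0.076, the latter without cKO replicate 1), and the log2 ratio of Naip1 to Nlrc4 (-0.367 to 0.0091, the latter without cKO replicate 1). The cause was not tested. Scaling by total reads gave 64.3% of calls as higher (1329 higher, 738 lower) against 48.2%. The replicate numbers were not taken as pairs, since the labels give no shared source for a number and same-numbered deviations correlated at 0.32, -0.11, 0.12 and 0.32, below 0 for 1 of 4. As a hint from the data, 3 of 4 Ctrl libraries were closest to their own number. The replicate block gave 821 genes higher and 924 lower, with 1 member higher and 4 lower, and adjusted p of 0.0607 for Il1r1 and 0.0533 for Tlr5, which lost their calls, and of 0.0407 for Il1b, which gained one. Depth limits Nlrp3 and Mefv most, at 25 and 14 reads over Ctrl.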
